A study of Homo sapiens with 14 samples.

Results

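The 40 genes described here are direct targets of p53 that act outside the classical cell-cycle brake and the death receptors. They were taken by gene symbol from a written list, chosen with earlier results of these data known. They fall into 6 roles. These are DNA repair, metabolism and transport, modulation of survival and death, kinases with ubiquitin and cycle regulators, secreted and membrane signalling, and RNA. An Affymetrix U133 Plus 2.0 probe set was available for 39 of them among 19775 genes in all, and FDXR, ferredoxin reductase, was not analysed here. Among probe sets that name a single gene, the brightest on average stood for each gene.

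Gene expression was compared in Hep3BTAp73β cells with (Dox+) and without (Dox−) doxycycline. Hep3B is a hepatocellular carcinoma line that carries a deletion of the p53 gene, and all 14 arrays share that background and the introduced construct. Dox+ cells received doxycycline at 1 μg/mL, and Dox− cells were untreated. At 12 h there were 2 Dox+ and 2 Dox− arrays, at 24 h 2 and 2, and at 48 h 3 and 3, labelled as biological replicates. Full-length TAp73β cDNA stood in the pT-REx-DEST30 vector beside the repressor plasmid pcDNA6/TR, and the cells were expanded from picked drug-resistant colonies. Doxycycline-treated Hep3B cells without the construct were not among the arrays, so the action of doxycycline itself and that of TAp73β cannot be told apart. The sample labels name DMEM as the medium, whereas the methods name RPMI.

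p53 is a transcription factor that binds paired copies of a short DNA motif near its target genes and raises their transcription after DNA damage or other stress. p73 is its relative with a similar DNA-binding domain, and the TA forms carry an activation domain and can bind many of the same motifs. The targets include not only genes that halt the cycle or kill the cell but also genes that repair DNA, handle lipids and redox metabolites, change adhesion and secrete signals. Since the cells lack p53, the arrays ask how these targets behave when TAp73β is switched on in a p53-null liver cancer cell.

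The values are log2 expression values made by RMA, a method that corrects background, equalizes the arrays and joins the probes of a probe set. A difference of 1 on this scale is a 2-fold change, and levels of different probe sets are not comparable. Array medians ran from 5.15 to 5.28. Replicate arrays spread (root of the mean variance over genes, log2) by 0.15 to 0.209 at 12 h and 24 h but 0.105 and 0.111 at 48 h, so the 48 h comparison is the most precise. The TP73 transcript, by its brightest probe set, was 3.70-fold, 4.83-fold and 3.89-fold higher in Dox+ cells in order of time (log2 1.89, 2.27 and 1.96). On that probe set no Dox− array overlapped a Dox+ array. Its other probe sets, each tested on its own, showed smaller rises. The next brightest rose by 0.42, 0.77 and 0.72 in the same order (adjusted p = 0.452, 0.0402 and 3e-04). The dimmest rose by 0.70, 0.82 and 1.17 (adjusted p = 0.378, 0.107 and 2.85e-05). Of 10 hepatocyte marker genes 9 were measured, with albumin at 14.38 on average on the 48 h Dox− arrays (log2). At 48 h 1 of these 9 was called up (SERPINA1, 0.54) and 5 were called down, with median -0.40. Of all genes 11.3% were called up and 12.9% called down at that time. Of 4 leukocyte, 5 endothelial and 6 fibroblast or stellate markers measured, the defining genes PTPRC and CDH5 lay at 3.53 and 3.68 on average on the same arrays, below every array median. The levels ran from 3.53 to 11.87 (LYZ) for leukocyte, 3.68 to 6.43 (PECAM1) for endothelial and 4.09 (COL3A1) to 8.65 (LUM) for fibroblast or stellate markers, so not all of these markers were low. Of these markers 1 was called down (LYZ, -0.92) and 2 were called up (LUM, 1.23, and DCN, 0.20) at 48 h, not far from the shares of all genes. The part of these shifts in the results below was not tested, and in RNA from a whole culture fewer cells of a type and less RNA per cell cannot be told apart.

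More of the p53 targets were called up at each later time after TAp73β induction, as were more of all genes. These counts do not measure the size of the response, because the 48 h comparison had more arrays and a smaller spread. With all arrays in 1 fit the counts called up were 15, 17 and 24 in order of time, beside 5.26%, 5.59% and 7.27% of all genes. At 48 h 27 of the 39 measured genes were up-regulated and 4 down-regulated (limma, adjusted p under 0.05 over all genes), whereas 11.3% of all genes were called up and 12.9% called down. The share that was down-regulated is thus near that of all genes, while the share up-regulated is far above it. The genes were chosen with earlier results of these data known, so this excess is not independent support. At 24 h 10 were up-regulated and 0 down-regulated, beside 3.01% and 2.81% of all genes. At 12 h 3 were up-regulated and 0 down-regulated, beside 0.647% and 0.0202% of all genes. At an unadjusted p under 0.05, 18 genes were higher and 1 lower at 12 h, and 21 were higher and 4 lower at 24 h. Of all 19775 genes 1414 were higher and 1286 lower at 12 h by that rule, and 1947 and 2040 at 24 h, so the 4 lower genes are a share near that of all genes. The 12 h count rests on few arrays, because 0 of the 39 genes were called without Dox− replicate 1 or without Dox− replicate 2, and 1 without Dox+ replicate 2. No gene of the 39 was called down at 12 h with any array left out, while at 24 h PLK3 was called down without Dox+ replicate 2.

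The 39 genes had a median log2 fold change of 0.29 at 12 h, 0.30 at 24 h and 0.46 at 48 h, whereas that of all genes was -0.04, 0.02 and -0.02. At 48 h the values ran from -0.41 to 2.39, and the mean of Dox+ lay above that of Dox− for 34 of the 39. Of all 19775 genes 8977 were higher in Dox+ cells at 48 h. All 10 genes that differed by at least 2-fold at 48 h were higher in Dox+ cells and past the test. They were ABCA12, TP53I3, TP53TG1, FUCA1, PLK2, ACER2, EPHA2, PANK1, CYFIP2 and CD82. Among all genes 301 (1.52%) were at least 2-fold higher at 48 h, all of them past the test. By the same rule 47 (0.238%) were called down. Genes called up at 24 h were all called up at 48 h as well, and 17 genes were called up at 48 h only. The share of all genes called at 48 h only was not counted. A call at 48 h only does not by itself show a late response, since that comparison was the most precise. RRM2B differed by 0.66, 0.53 and 0.59 in order of time, whereas ABCA12 differed by 0.01, 0.51 and 2.39. Other probe sets of CES2, PERP and RAP2B were called up at 24 h (0.98, 0.80 and 1.47, each probe set tested on its own). TP53I3, PANK1 and FBXW7 were called up at all 3 times.

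**Figure D1:**
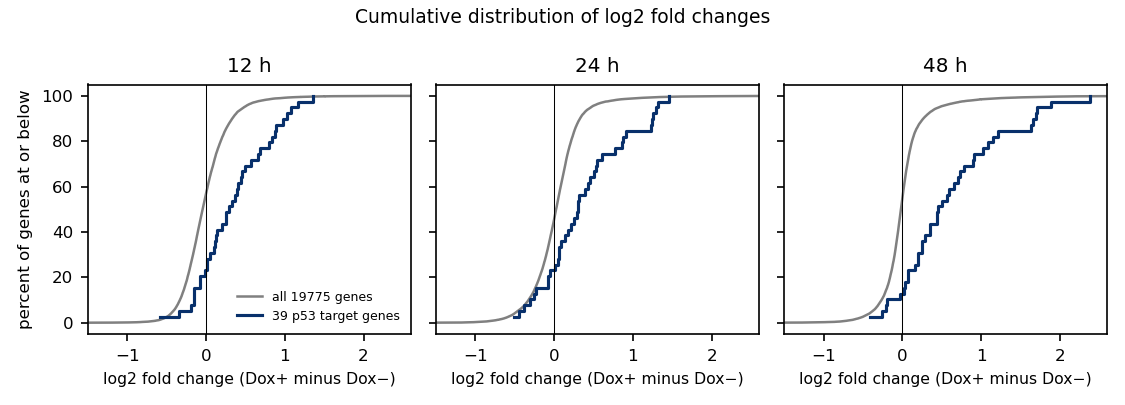
Cumulative share of genes (percent, y axis) at or below each log2 fold change of Dox+ over Dox− (x axis) for each time, with the 39 p53 targets in blue and all 19775 genes in grey. The blue curve lies to the right of the grey curve over most of its length at each time, with medians of 0.29, 0.30 and 0.46 against -0.04, 0.02 and -0.02.

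The roles differed in how many of their genes moved at 48 h, when 11.3% of all genes were called up and 12.9% called down. All 7 secreted and membrane signalling genes and both RNA genes were up-regulated, as were 7 of 9 metabolism and transport genes and 4 of 5 kinases, ubiquitin and cycle genes. Among the 12 modulators of survival and death 5 were up-regulated, 3 were down-regulated and 4 did not pass. Among the 4 DNA repair genes 2 were up-regulated, 1 was down-regulated and 1 did not pass. Median log2 fold changes at 48 h were 1.21 for the 2 RNA genes, 1.15 for metabolism and transport, 0.79 for signalling, 0.73 for kinases, ubiquitin and cycle, 0.28 for DNA repair and 0.07 for survival and death. These differences between roles were not tested, and with so few genes in a role the falls do not mark a role.

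**Figure D2:**
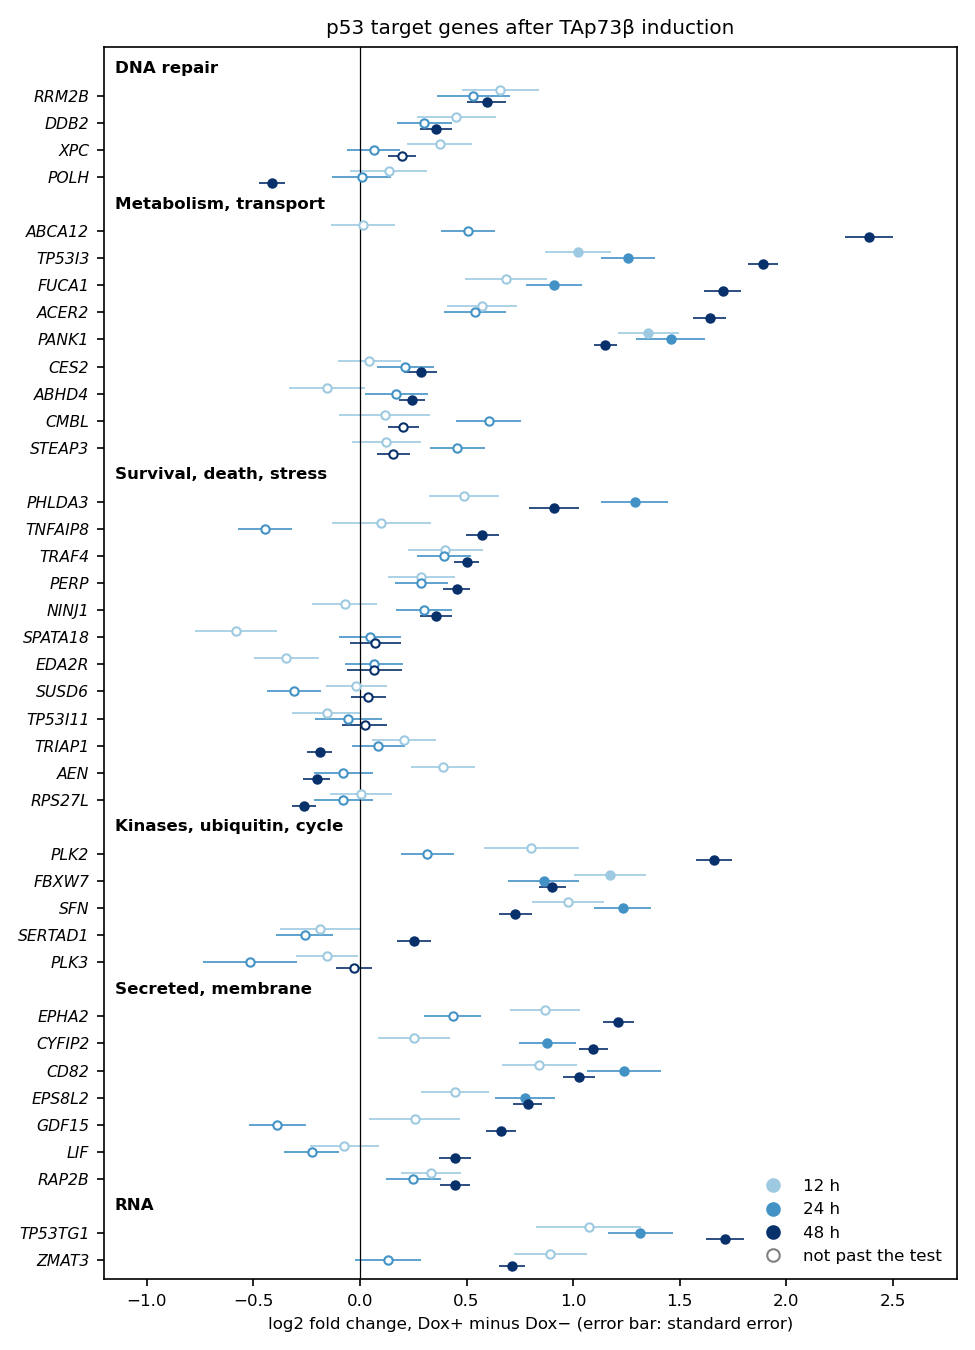
Log2 fold change of Dox+ over Dox− (x axis) with its standard error for each of the 39 measured p53 targets, grouped by role, at 12 h (light), 24 h (middle) and 48 h (dark blue); filled points passed limma's test and open points did not. All secreted, membrane and RNA genes are filled and right of 0 at 48 h, while POLH, TRIAP1, AEN and RPS27L are filled and left of 0.

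The start of each gene was searched for the p53 motif, to show which of these targets carry it close to the start site. The motif is the 10-base p53 consensus decamer, which reads the same on both strands and which p53-family proteins bind in pairs. RefSeq windows of 300 bases (GRCh38.p14, 250 before and 50 after the start) were at hand for 36 of the 40 genes, 52 windows in all. Only exact matches to the consensus counted, so decamers and pairs with a mismatched base were left out. A decamer was found in 10 of these 52 windows (19.2%) and in 2329 of 35116 windows of all genes (6.63%). Decamers in a pair with a gap of at most 13 bases were found in 10 windows of all genes (0.0285%), 1 of them that of DDB2. Stretches are shown for DDB2, which has the pair, for 3 genes with rises of at least 2-fold, and for 2 genes that were down-regulated. Capitals mark the decamers, and each stretch reads 5′ to 3′ on the strand of its gene.
DDB2, chr11:47214975-47215003, plus strand: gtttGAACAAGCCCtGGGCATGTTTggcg
ABCA12, chr2:215138689-215138718, minus strand: agagaatgtaGGACAAGTCCtactggcctt
PLK2, chr5:58460199-58460228, minus strand: tggcgggacaAGACTTGCTTcccggccacg
PANK1, chr10:89645246-89645275, minus strand: gggcaggactGGGCATGCTCagtggcgggg
AEN, chr15:88621296-88621325, plus strand: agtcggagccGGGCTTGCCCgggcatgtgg
RPS27L, chr15:63157517-63157546, minus strand: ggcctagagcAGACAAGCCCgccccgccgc

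The other genes with a decamer were ABHD4, EPS8L2, RAP2B and FDXR. Of the 10 genes with a decamer 7 were called up at 48 h, 2 were called down and 1 (FDXR) was not measured. Of the 26 genes with a window and no decamer 17 were called up, 2 were called down and 7 did not pass. Genes that rose and genes that fell thus both occur with and without an exact match to the motif in this window. A match describes letters near the start and does not show binding, and p53 sites further away, in introns or upstream, lie outside the window.

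The 2 largest rises at 48 h, those of ABCA12 and TP53I3, were in metabolism and transport genes. ABCA12, a lipid transporter known from the lamellar granules of the epidermis, read 3.90 and 3.75 on the Dox− arrays and 3.79 and 3.89 on the Dox+ arrays at 12 h. At 24 h it read 3.62 and 3.55 (Dox−) and 4.12 and 4.06 (Dox+). The 48 h arrays gave 3.60, 3.34 and 3.81 (Dox−) and 5.88, 6.08 and 5.97 (Dox+). The groups overlapped at 12 h, stood apart narrowly at 24 h and stood apart widely at 48 h. Here and below, a lack of overlap between groups of 2 arrays is weak evidence, and its share over all genes was not counted. The difference at 48 h was 2.39 (5.24-fold, SE 0.11, adjusted p = 1.21e-06), rank 32 from the top among all genes. It was 0.01 at 12 h and 0.51 at 24 h (adjusted p = 0.975 and 0.0529). All its Dox− values lie below the array medians and near the levels of PTPRC and CDH5, so the probe set was dim in untreated cells. No detection calls were at hand, and both the fold and the rank may understate the change from so dim a baseline.

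TP53I3 encodes a quinone oxidoreductase that produces reactive oxygen species. It read 9.65 and 9.49 (Dox−) and 10.69 and 10.50 (Dox+) at 12 h, and 9.61 and 9.58 against 10.79 and 10.91 at 24 h. Its 48 h values were 9.39, 9.36 and 9.48 (Dox−) and 11.25, 11.23 and 11.42 (Dox+). The lowest Dox+ array lay above the highest Dox− array at each time. Its rise grew from 1.02 at 12 h to 1.26 at 24 h and 1.89 at 48 h, or 2.03-fold, 2.39-fold and 3.71-fold (adjusted p = 0.0368, 0.00102 and 3.1e-07). At 12 h the call was kept in 6 of 12 alternatives, with adjusted p from 4.37e-05 to 0.456.

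PANK1, pantothenate kinase, catalyses the first step of coenzyme A synthesis. It read 8.50 and 8.53 (Dox−) and 9.83 and 9.90 (Dox+) at 12 h, and 8.76 and 8.38 against 9.92 and 10.13 at 24 h. By 48 h the arrays read 9.18, 9.22 and 9.22 (Dox−) and 10.32, 10.38 and 10.36 (Dox+). No groups overlapped, and the Dox− mean itself was higher by 0.69 at 48 h than at 12 h. Its rise was 1.35, 1.46 and 1.15 at the 3 times (adjusted p = 0.00994, 0.00163 and 1.33e-06).

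FUCA1, the lysosomal enzyme that removes fucose from glycoproteins, read 9.67 and 9.19 (Dox−) and 10.19 and 10.04 (Dox+) at 12 h, and 9.54 and 9.37 against 10.34 and 10.39 at 24 h. At 48 h it read 9.45, 9.58 and 9.51 (Dox−) and 11.08, 11.16 and 11.40 (Dox+). The groups were apart at each time, widest at 48 h. Its rise was 0.91 at 24 h and 1.70 (3.25-fold) at 48 h (adjusted p = 0.00558 and 1.95e-06), after 0.68 at 12 h (adjusted p = 0.216).

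ACER2 is a Golgi ceramidase that makes sphingosine. The 48 h arrays gave 5.14, 5.00 and 5.11 (Dox−) and 6.85, 6.71 and 6.61 (Dox+), with no overlap. ACER2 was thus dim in untreated cells at 48 h, with these Dox− values below every array median. Its rise at 48 h was 1.64 (3.12-fold, adjusted p = 1.05e-06), against 0.57 and 0.54 at 12 h and 24 h (adjusted p = 0.228 and 0.0657). The lipid- and ester-cleaving enzymes CES2 and ABHD4 rose by smaller amounts at 48 h, 0.28 and 0.24 (adjusted p = 0.0244 and 0.0167). CES2 passed in 7 of 14 alternatives and ABHD4 in 10 of 14. The hydrolase CMBL and the ferrireductase STEAP3 had differences of 0.20 and 0.16 that did not pass (adjusted p = 0.0741 and 0.205). Another probe set of CMBL was called up at 48 h, as given below.

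**Figure D3:**
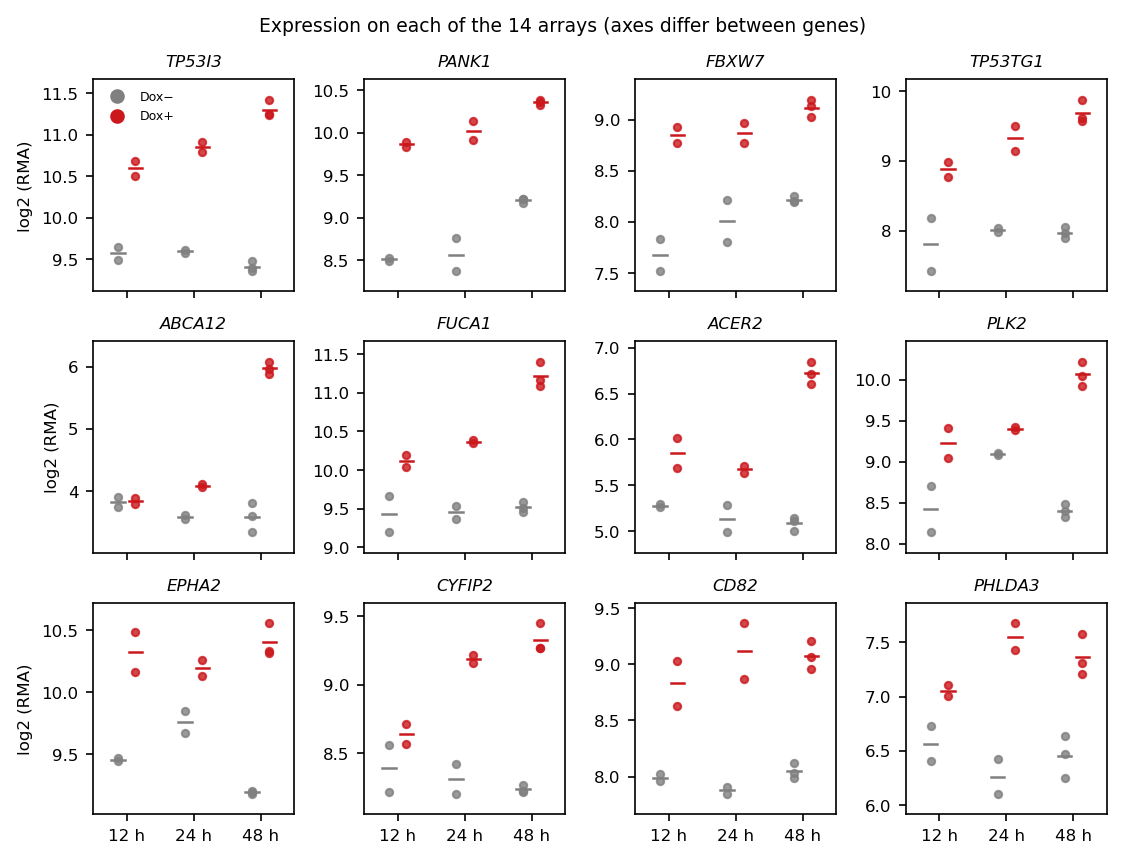
Log2 expression (RMA, y axis, a separate scale for each gene) on each of the 14 arrays by time for 12 up-regulated targets; grey points are Dox− arrays, red points are Dox+ arrays, and a short line marks each mean. At 48 h every Dox+ point lies above every Dox− point in each panel, whereas ABCA12 overlaps at 12 h.

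Kinases, ubiquitin and cycle genes rose in 4 of 5 cases at 48 h. PLK2, a polo-like kinase of centriole duplication, read 8.71 and 8.14 (Dox−) and 9.41 and 9.05 (Dox+) at 12 h, and 9.10 and 9.08 against 9.38 and 9.43 at 24 h. Its 48 h values were 8.33, 8.49 and 8.39 (Dox−) and 9.92, 10.04 and 10.22 (Dox+). The groups did not overlap at any time, and the Dox− arrays at 24 h were higher than those at 12 h and 48 h. Its rise at 48 h was 1.66 (3.16-fold, SE 0.08, adjusted p = 1.78e-06), against 0.80 at 12 h and 0.32 at 24 h (adjusted p = 0.213 and 0.198).

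FBXW7 is the subunit by which an SCF ubiquitin ligase recognizes substrates such as cyclin E and MYC. It read 7.84 and 7.52 (Dox−) and 8.77 and 8.93 (Dox+) at 12 h, and 8.22 and 7.80 against 8.77 and 8.97 at 24 h. By 48 h the arrays read 8.20, 8.25 and 8.20 (Dox−) and 9.03, 9.13 and 9.19 (Dox+), again with no overlap. Its rise was 1.17, 0.86 and 0.90 at the 3 times (adjusted p = 0.0313, 0.0201 and 1.28e-05), and at 12 h it passed in 7 of 12 alternatives.

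SFN, the 14-3-3σ protein that holds mitotic kinases in the cytoplasm, read 9.68 and 9.94 (Dox−) and 10.66 and 10.90 (Dox+) at 12 h, and 9.74 and 9.58 against 10.96 and 10.83 at 24 h. At 48 h it read 9.79, 9.75 and 9.80 (Dox−) and 10.40, 10.46 and 10.67 (Dox+). The groups were apart at each time, and the Dox+ arrays were highest at 24 h. Its rise was 1.23 at 24 h and 0.73 at 48 h (adjusted p = 0.00142 and 1.61e-04), and 0.98 at 12 h did not pass (adjusted p = 0.0591). SERTAD1, a CDK4-binding regulator, was called up at 48 h by 0.25 (adjusted p = 0.0484), in 5 of 14 alternatives. PLK3, another polo-like kinase, differed by -0.03 at 48 h (adjusted p = 0.869). It was dim, with a mean over all arrays under that of the median gene, so this absent change shows little.

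All 7 secreted and membrane signalling genes were up-regulated at 48 h, with log2 fold changes from 0.45 to 1.21. EPHA2, a receptor tyrosine kinase for ephrins, read 9.47 and 9.44 (Dox−) and 10.49 and 10.16 (Dox+) at 12 h, and 9.67 and 9.85 against 10.13 and 10.26 at 24 h. The 48 h arrays gave 9.20, 9.18 and 9.19 (Dox−) and 10.33, 10.32 and 10.56 (Dox+). The Dox+ arrays stayed between 10.13 and 10.56 at all times, whereas the Dox− arrays were highest at 24 h and lowest at 48 h. Its rise at 48 h was 1.21 (2.32-fold, adjusted p = 5.8e-06), against 0.87 and 0.44 earlier (adjusted p = 0.0805 and 0.103).

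CYFIP2 is a part of the WAVE complex that drives actin branching. It read 8.22 and 8.56 (Dox−) and 8.57 and 8.72 (Dox+) at 12 h, and 8.42 and 8.20 against 9.22 and 9.16 at 24 h. Its 48 h values were 8.21, 8.27 and 8.22 (Dox−) and 9.27, 9.27 and 9.45 (Dox+). The groups nearly touched at 12 h and were well apart afterwards. Its rise was 0.88 at 24 h and 1.09 at 48 h (adjusted p = 0.00784 and 5.99e-06).

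CD82 is a tetraspanin known as a suppressor of metastasis. It read 7.96 and 8.02 (Dox−) and 8.63 and 9.03 (Dox+) at 12 h, and 7.91 and 7.85 against 8.87 and 9.37 at 24 h. By 48 h the arrays read 8.03, 8.12 and 7.99 (Dox−) and 9.06, 8.96 and 9.20 (Dox+). The Dox+ arrays were higher throughout with no overlap, and their replicates lay furthest apart at 24 h. Its rise was 1.24 at 24 h and 1.03 at 48 h (adjusted p = 0.00478 and 1.74e-05), after 0.84 at 12 h (adjusted p = 0.103).

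The actin regulator EPS8L2 rose by 0.77 at 24 h and 0.79 at 48 h (adjusted p = 0.0162 and 5.71e-05). The small GTPase RAP2B and the IL-6 family cytokine LIF rose by 0.45 each at 48 h (adjusted p = 0.00144 and 0.00216). GDF15 is a stress cytokine of the TGF-β family. It read 12.87 and 12.36 (Dox−) and 13.05 and 12.69 (Dox+) at 12 h, and 12.90 and 13.00 against 12.49 and 12.65 at 24 h. At 48 h it read 12.79, 12.79 and 12.93 (Dox−) and 13.42, 13.47 and 13.60 (Dox+). The groups overlapped at 12 h, Dox+ lay below Dox− at 24 h, and Dox+ lay above Dox− at 48 h. The difference was -0.39 at 24 h, not past the test (adjusted p = 0.137), and 0.66 at 48 h (adjusted p = 1.78e-04). That probe set is of the _x_at class, whose probes may also match other transcripts. The call rests on it, since the other 2, both dim, differed by 0.05 and -0.08 at 48 h (adjusted p = 0.735 and 0.482 with every probe set tested).

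Both RNA genes rose at 48 h. TP53TG1, a long noncoding RNA induced by p53, read 8.18 and 7.42 (Dox−) and 8.98 and 8.77 (Dox+) at 12 h, and 8.03 and 7.98 against 9.14 and 9.51 at 24 h. The 48 h arrays gave 7.89, 8.05 and 7.97 (Dox−) and 9.57, 9.61 and 9.87 (Dox+). The groups were apart at each time, and at 12 h the Dox− arrays themselves lay far from each other. Its rise was 1.31 at 24 h and 1.71 (3.28-fold) at 48 h (adjusted p = 0.00201 and 2.07e-06), after 1.07 at 12 h (adjusted p = 0.138). Its other 2 probe sets rose by 1.47 and 1.56 at 48 h.

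ZMAT3 encodes a zinc-finger protein that binds RNA and regulates splicing. It read 9.24 and 8.87 (Dox−) and 9.90 and 10.00 (Dox+) at 12 h, and 9.64 and 9.39 against 9.50 and 9.80 at 24 h. Its 48 h values were 9.33, 9.46 and 9.38 (Dox−) and 10.08, 10.07 and 10.17 (Dox+). The groups overlapped at 24 h and not at 12 h or 48 h. Its rise at 48 h was 0.71 (adjusted p = 5.15e-05), against 0.89 at 12 h and 0.13 at 24 h (adjusted p = 0.0858 and 0.69).

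The modulators of survival and death moved in both directions. PHLDA3, an inhibitor of AKT signalling, read 6.73 and 6.41 (Dox−) and 7.00 and 7.11 (Dox+) at 12 h, and 6.10 and 6.42 against 7.43 and 7.68 at 24 h. By 48 h the arrays read 6.64, 6.25 and 6.48 (Dox−) and 7.31, 7.58 and 7.21 (Dox+). Dox+ was higher with no overlap at each time, by most at 24 h. Its rise was 1.29 at 24 h and 0.91 at 48 h (adjusted p = 0.00254 and 5.34e-04), after 0.49 at 12 h (adjusted p = 0.286).

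TNFAIP8, a regulator that restrains caspases, read 10.38 and 9.66 (Dox−) and 10.12 and 10.11 (Dox+) at 12 h, and 10.48 and 10.39 against 10.02 and 9.96 at 24 h. At 48 h it read 9.71, 9.88 and 9.69 (Dox−) and 10.28, 10.27 and 10.46 (Dox+). As with GDF15, Dox+ lay below Dox− at 24 h and above it at 48 h, and the groups overlapped at 12 h. The difference was -0.45 at 24 h, not past the test (adjusted p = 0.0797), and 0.57 at 48 h (adjusted p = 7.49e-04). At 24 h it was called down in 2 of 12 alternatives, with dim genes left out and with the trend and robust options.

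TRAF4, an adaptor protein of the TRAF family, read 9.73 and 9.46 (Dox−) and 10.15 and 9.84 (Dox+) at 12 h, and 9.66 and 9.62 against 10.07 and 10.01 at 24 h. The 48 h arrays gave 9.49, 9.48 and 9.56 (Dox−) and 10.00, 9.96 and 10.06 (Dox+), and no time showed an overlap. Its rise at 48 h was 0.50 (adjusted p = 3.12e-04). The membrane proteins PERP, found in desmosomes, and NINJ1, which acts in plasma membrane rupture, rose by 0.45 and 0.36 at 48 h (adjusted p = 7.97e-04 and 0.00672).

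RPS27L, AEN and TRIAP1 were down-regulated at 48 h by small amounts. RPS27L, a paralog of a small-subunit ribosomal protein, read 12.92, 12.99 and 12.97 (Dox−) and 12.67, 12.68 and 12.75 (Dox+) at 48 h. The groups did not overlap, and the fall was -0.26 (adjusted p = 0.00914). AEN, a nuclease of apoptotic cells, read 8.37, 8.51 and 8.39 (Dox−) and 8.25, 8.23 and 8.19 (Dox+) at 48 h. At 12 h AEN had read 8.31 and 8.19 (Dox−) and 8.71 and 8.57 (Dox+), so Dox+ was above Dox− at 12 h and below it at 48 h. Its difference was -0.20 at 48 h, past the test (adjusted p = 0.044), whereas 0.39 at 12 h did not pass (adjusted p = 0.332). TRIAP1, a small mitochondrial protein that restrains apoptosis, read 9.65, 9.65 and 9.69 (Dox−) and 9.45, 9.53 and 9.44 (Dox+) at 48 h, a fall of -0.19 (adjusted p = 0.0409). AEN and TRIAP1 each passed in 4 of 14 alternatives, and neither passed with any 48 h array left out. RPS27L passed in 12 of 14.

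SPATA18, TP53I11, EDA2R and SUSD6 did not pass at 48 h, with differences from 0.02 to 0.07 and adjusted p from 0.736 to 0.916. All but SUSD6 were dim, with means over all arrays under that of the median gene, so their absent changes show little. SPATA18 lay below every array median on all 48 h arrays. SPATA18 acts in mitochondrial quality control, and EDA2R is a receptor of the TNF receptor family. At 12 h the Dox+ mean of SPATA18 was lower by -0.58, not past the test (adjusted p = 0.279).

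**Figure D4:**
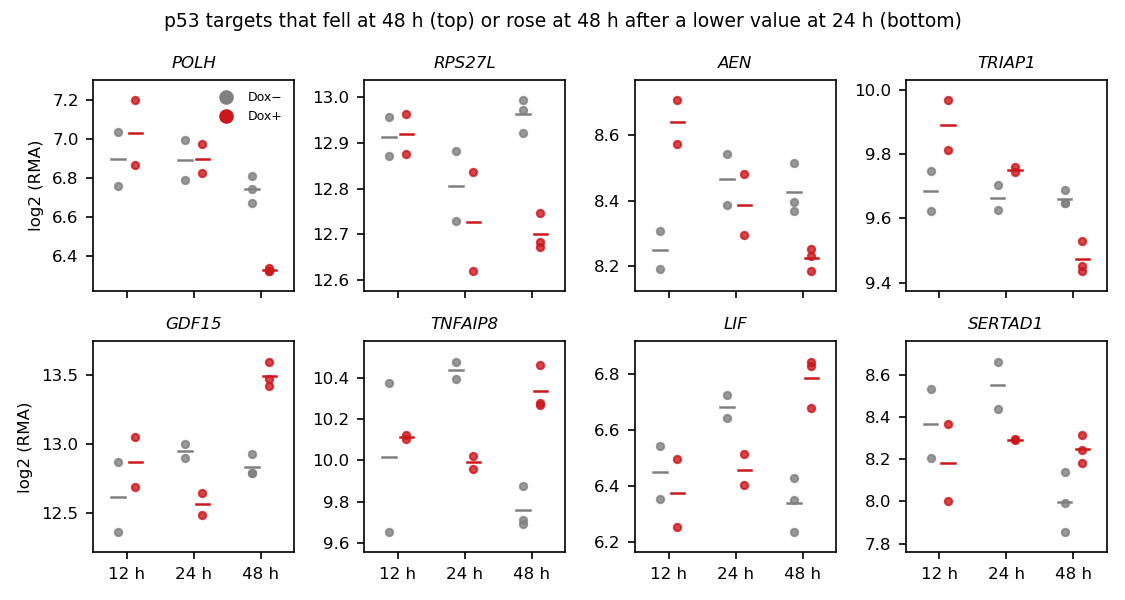
Log2 expression (RMA, y axis, a separate scale for each gene) on each array by time, with Dox− points grey, Dox+ points red and a short line at each mean. The top row holds the 4 targets that fell at 48 h, and the bottom row holds 4 that rose at 48 h with Dox+ below Dox− at 24 h.

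Among the DNA repair genes RRM2B, a p53-inducible subunit of ribonucleotide reductase, had the largest rise. It read 8.29 and 8.51 (Dox−) and 8.87 and 9.25 (Dox+) at 12 h, and 8.62 and 8.36 against 8.82 and 9.23 at 24 h. Its 48 h values were 8.30, 8.62 and 8.46 (Dox−) and 9.08, 8.95 and 9.12 (Dox+). Dox+ lay above Dox− with no overlap at each time, though with only 2 against 2 arrays at 12 h and 24 h. The rise at 48 h was 0.59 (1.51-fold, adjusted p = 0.00127), and differences of 0.66 and 0.53 at 12 h and 24 h did not pass (adjusted p = 0.212 and 0.115).

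DDB2, which recognizes ultraviolet damage for nucleotide excision repair and whose start holds the paired decamers shown above, read 7.81 and 7.39 (Dox−) and 8.14 and 7.96 (Dox+) at 12 h. At 24 h it read 7.67 and 7.54 against 7.96 and 7.86, and at 48 h 7.54, 7.67 and 7.74 (Dox−) and 7.94, 7.97 and 8.11 (Dox+). There was no overlap at any time, but the gap was small. Its rise at 48 h was 0.36 (1.28-fold, adjusted p = 0.00731). XPC, which acts in the same pathway, differed by 0.20 at 48 h and did not pass (adjusted p = 0.0639), with no overlap between the groups.

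POLH, the translesion polymerase eta that copies past ultraviolet lesions, had the largest fall. It read 6.76 and 7.03 (Dox−) and 6.86 and 7.20 (Dox+) at 12 h, and 6.99 and 6.79 against 6.82 and 6.97 at 24 h. By 48 h the arrays read 6.81, 6.74 and 6.67 (Dox−) and 6.34, 6.32 and 6.32 (Dox+). The groups overlapped at 12 h and 24 h and stood apart at 48 h, where the fall was -0.41 (0.751-fold, adjusted p = 0.001). The fall was seen by 1 of 6 probe sets, since the other 5 differed by -0.10 to 0.10 at 48 h and none of them passed.

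Probe sets of the same gene gave different answers for several of the targets. Beside the probe sets used, 49 others belong to 23 of the 39 genes, and 22 of the 49 were called up and 2 down at 48 h when each probe set was tested on its own. Over all probe sets 8.19% were called up and 9.19% down at 48 h. At 24 h 10 of the 49 were called up and 0 down, beside 2.07% and 3.15% of all probe sets, and at 12 h 0 and 0. CMBL did not pass with the probe set used (0.20), whereas a dimmer probe set, with p adjusted over all probe sets, was called up by 1.70 at 24 h and 1.45 at 48 h (adjusted p = 0.0014 and 1.45e-06). Its difference of 1.22 at 12 h did not pass (adjusted p = 0.141). The remaining probe set of CMBL differed by 0.05 at 48 h (adjusted p = 0.784). EPS8L2 rose by 0.79 with the probe set used, whereas a dim one with a mean of 4.80 fell by -0.34 (adjusted p = 0.00848). Of the other 2 probe sets of RPS27L, 1 fell by -0.46 (adjusted p = 0.00343) and the other differed by -0.23 (adjusted p = 0.288). For FUCA1 the second probe set, with a mean of 3.65, differed by 0.04 (adjusted p = 0.78).

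**Figure D5:**
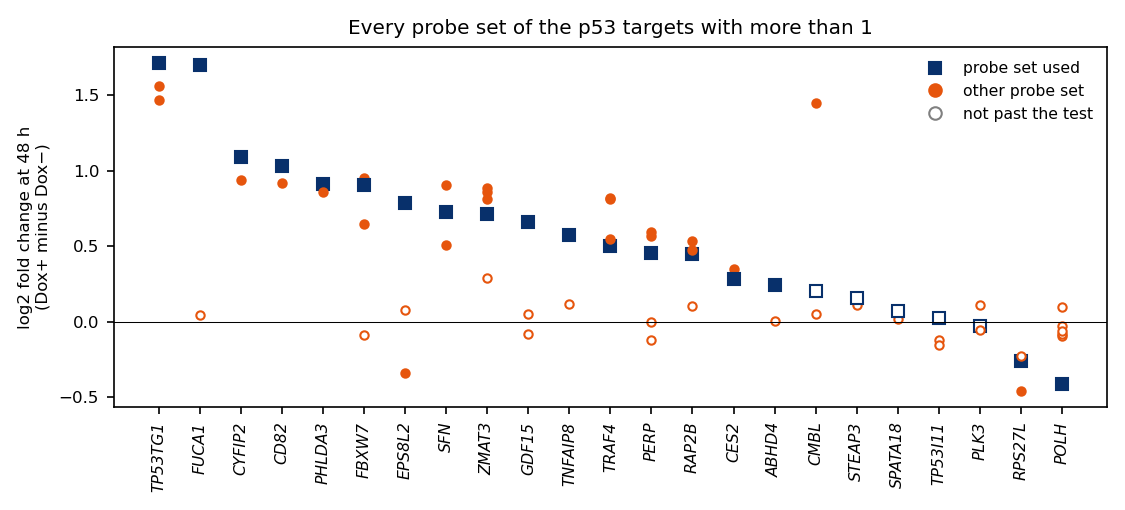
Log2 fold change of Dox+ over Dox− at 48 h (y axis) for every probe set of the 23 targets with more than 1 (x axis); squares are the probe sets used, circles are the others, and open symbols did not pass the test adjusted over all probe sets. CMBL has an orange circle at 1.45 above its open square, and the circles of POLH lie near 0 above its filled square at -0.41.

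The size of the response was compared between times in 1 limma fit of all 14 arrays, and a gene was taken as different where it passed both with and without array weights per time. Against 12 h the response at 48 h was larger for 5 of the 39 genes, beside 1.05% of all genes that differed in either direction. These were ABCA12, ACER2, CYFIP2, FUCA1 and TP53I3. Against 24 h it was larger for 6 genes, beside 0.657% of all genes, and these were ABCA12, ACER2, EPHA2, GDF15, PLK2 and TNFAIP8. ABCA12 and ACER2 passed against both earlier times. PANK1, FBXW7, SFN, CD82 and PHLDA3 did not pass in either contrast, which does not show that their response was constant. Of the 6 genes against 24 h, EPHA2, GDF15 and TNFAIP8 passed in 7, 8 and 5 of 18 alternatives, and 1 gene of the 39, ABCA12, passed without Dox+ 24 h replicate 1.

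The other genes of the p53 pathway, listed separately as cycle arrest genes, death receptors, apoptosis genes and feedback regulators, were measured for 20 of 24. At 48 h 14 were up-regulated, 0 were down-regulated and 6 did not pass, beside 11.3% of all genes called up and 12.9% called down. Their median log2 fold change was 0.38, against -0.02 for all genes. At 12 h 5 were up-regulated, beside 0.647% of all genes. At 24 h 9 were up-regulated and 1 down-regulated, beside 3.01% and 2.81% of all genes. CDKN1A, the CDK inhibitor p21, was 6.82-fold higher at 48 h (adjusted p = 3.84e-08). The death receptor FAS was 6.68-fold higher (adjusted p = 5.52e-08), over Dox− arrays at 4.55, 4.47 and 4.31 that were dim, below every array median. PIDD1, a scaffold for caspase activation, was 4.47-fold higher (adjusted p = 6.34e-07). MDM2, the ubiquitin ligase that degrades p53, was 3.36-fold higher (adjusted p = 9.81e-07). Of the 39 targets described above only ABCA12 (5.24-fold, from a dim baseline) and TP53I3 (3.71-fold) had a larger measured change than MDM2 at 48 h.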

How the data were processed

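Each RNA went onto its own 1-colour Affymetrix U133 Plus 2.0 array. The authors deposited log2 values obtained by RMA. The processing notes name RMA and R 3.5.1, the methods name BRB-ArrayTools, and the methods also say that outlier arrays had been excluded. All 14 arrays with values were used as deposited, with no further normalization. Of 54675 probe sets 62 controls were dropped, and 41091 named a single gene in the platform annotation, 41037 of them matched to a RefSeq symbol. For each of 19775 genes the brightest probe set was kept.

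The 2 groups of each time were compared by limma 3.58.1 (lmFit and eBayes, two-sided) in R 4.3.3, with Benjamini-Hochberg adjustment over all genes and a threshold of 0.05. Every adjusted p is from limma. The code was tested on simulated data. Replicates are labelled as biological, and p-values measure the spread between these arrays only. The number of arrays limits the precision.

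The members, the role lists, the pathway list and the marker lists were chosen with earlier results of these data known. All 40 genes are named. Array values are given for up to 3 genes of each role that passed at 48 h with the largest changes, and those of PANK1, ACER2, GDF15, RPS27L, AEN and TRIAP1 were added after their values were seen, as were the CMBL, EPS8L2, RPS27L and FUCA1 probe sets. Of the other pathway genes the 4 with the largest changes among those called are named. Alternatives were choosing probe sets by their interquartile range, all probe sets tested singly, _x_at probe sets removed, genes with a mean under that of the median gene left out, quantile normalization, all arrays in 1 fit, trend and robust options, a replicate block, the Student's t-test that the methods list among their tests, a 2-fold requirement, and each array left out in turn. The alternatives for the difference between times, other than array weights, were added after seeing the data. Leaving out 1 of 2 arrays leaves a lone array that is assumed to vary like its comparison group. Promoter windows are RefSeq's for GRCh38.p14, searched with Python 3.11.15. Further software was pandas 2.3.3, numpy 2.4.6 and R's data.table package in version 1.17.8, and figures were drawn with matplotlib 3.10.9.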

Additional observations from a re-analysis of the deposited data

Results flagged for a closer look

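The response to doxycycline (Dox+ minus Dox−, log2) differed between times for some p53 targets, by a test of the difference itself over all 14 arrays, with and without array weights. The response at 48 h exceeded that at 12 h by 2.375 for ABCA12, 1.069 for ACER2, 1.017 for FUCA1, 0.8703 for TP53I3 and 0.8406 for CYFIP2. These 5 passed in every alternative run for this contrast. The response at 48 h exceeded that at 24 h by 1.883 for ABCA12, 1.344 for PLK2, 1.101 for ACER2, 1.049 for GDF15, 1.019 for TNFAIP8 and 0.7767 for EPHA2. ABCA12 passed in all 17 alternatives and ACER2 in 16 of 17, while PLK2 passed in 17 of 18. For ACER2 and PLK2 the exception was Dox+ 24 h replicate 1 left out (adjusted p = 0.0693 and 0.0717). EPHA2 passed in 7 of 18, GDF15 in 8 of 18 and TNFAIP8 in 5 of 18. Once _x_at probe sets were removed, a dimmer probe set stood for GDF15 and its value was -0.12 (adjusted p = 0.854).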

How the results depend on the processing

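The p53 targets called up at 12 h, 3 as reported, numbered 1 with every probe set tested on its own, 15 with all arrays in 1 fit, 9 with a replicate block, 0 with the methods' t-test, and 0 to 4 with an array left out. Those called up at 24 h, 10 as reported, numbered 17 with all arrays in 1 fit, 17 with the trend and robust options, 0 with the methods' t-test and 6 with a 2-fold requirement. Of all genes 5.59% were called up at 24 h with all arrays in 1 fit, and 4.78% with the trend and robust options. With 2 against 2 arrays that t-test called 0 of all 19775 genes at 12 h and at 24 h, so its loss is not particular to these targets. Those called down at 24 h, 0 as reported, numbered 1 with dim genes left out (TNFAIP8), 2 with the trend and robust options (TNFAIP8 and GDF15), and 0 to 1 with an array left out. Those called up at 48 h, 27 as reported, numbered 10 with a 2-fold requirement, and 23 to 29 otherwise. Those called down at 48 h, 4 as reported, numbered 0 with the largest interquartile range, 1 with all arrays in 1 fit, 2 with a replicate block, 0 with a 2-fold requirement, and 2 with any array left out. Members that differed between 48 h and 24 h, 6 as reported, numbered 1 to 9 with an array left out. The cause was not tested. Called up among all genes were 128 at 12 h as reported, 1040 with all arrays in 1 fit, 385 with a replicate block, and 4 without Dox− replicate 1.

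Same-numbered arrays deviated together at r = 0.255 (12 h), -0.11 (24 h), and 0.109, 0.0892 and 0.102 (48 h), and no label ties the numbers, so they were not taken as pairs. At 48 h every array correlated best with its own number, a hint from the data only. No Dox+ minus Dox− difference past the test changed sign under any alternative that gave each gene a single value. With every probe set tested on its own, some others had the opposite sign to the one used. A dim one of EPS8L2 was called down by -0.34 at 48 h (adjusted p = 0.00848). GDF15 at 48 h gave 0.05 (adjusted p = 0.688) without _x_at probe sets, and POLH gave -0.10 (adjusted p = 0.476) with the largest interquartile range. The number of arrays and the dim signal of ABCA12, ACER2, SPATA18, TP53I11, EDA2R and PLK3 limit what small or absent changes show.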
